A study of Mus musculus with 721 samples.

Results

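The question here was how mouse embryonic pancreas cells with Neurog3 transcript and transcripts of cell cycle genes compare with Neurog3 cells that carry none of those cell cycle transcripts. Cells were taken at E13.5, E14.5 and E15.5 from embryos with an eGFP reporter of Neurog3, were sorted for eGFP, and were sequenced 1 by 1 with SMART-seq in 2 runs. The members were selected on measured values: cells with at least 100000 fragments and 1500 detected genes (1 FPKM or more, fragments per kilobase of transcript, scaled to depth), Neurog3 at 100 FPKM or more, and a count of how many of 8 cell cycle genes (Mki67, Top2a, Cdk1, Ccnb1, Mcm3, Mcm5, Birc5 and Ube2c) stood at 5 FPKM or more. Cells with at least 3 of the 8 genes are called positive cells and cells with 0 of them negative cells. There were 28 positive and 78 negative cells, 106 members of 721 deposited cells. Of the 495 kept cells of these days 235 passed the Neurog3 minimum, and the 129 others among these carried 1 or 2 of the genes and belong to neither state.

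Every cell came from a suspension of pancreas cells sorted for eGFP, so cells without the reporter protein were not sampled, and all members share the reporter allele. The labels name no animals, strain, sex or agent, and the embryos behind a day are not known. Each day in each run was therefore treated as 1 cell set, with 6 sets, and p-values measure only the spread between these sets. In the order E13.5 runs 1 and 2, E14.5 runs 1 and 2, and E15.5 runs 1 and 2, the sets held 6, 10, 1, 4, 5 and 2 positive cells and 6, 19, 20, 10, 12 and 11 negative cells. Positive cells held 243275 to 1670000 fragments (median 551547) and negative cells 101675 to 1530000 (median 626400).

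Neurog3 is the basic helix-loop-helix factor that starts endocrine differentiation in the pancreas, where it appears for a short time in trunk epithelium and is followed by Neurod1, Pax4, Fev and then the hormones. Endocrine precursors are known for leaving the cell cycle as Neurog3 rises, and Cdkn1a, Pak3 and Btg2 are genes linked to that exit. Among the 8 selecting genes, Mcm3 and Mcm5 encode subunits of the helicase that is loaded onto DNA in G1 and opens it in S phase, and their transcripts are E2F targets. Cdk1 with cyclin B1 (Ccnb1) drives entry into mitosis, Top2a untangles chromosomes, Birc5 belongs to the chromosomal passenger complex, Ube2c works with the anaphase-promoting complex, and Mki67 coats mitotic chromosomes.

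The helicase genes and the mitotic genes are known for different promoter elements, so 2 promoters of each kind are shown in full. They are RefSeq windows of 300 bases around the start site on GRCm38.p6, 5′ to 3′ on the gene's strand, with matches in capitals to the E2F-type motif TTTNNCGC, the CHR-type motifs TTTGAA and TTTAAA, and CCAAT, each searched on both strands. Overlapping matches run together.
Mcm3 (chr1:20820263-20820562, minus strand): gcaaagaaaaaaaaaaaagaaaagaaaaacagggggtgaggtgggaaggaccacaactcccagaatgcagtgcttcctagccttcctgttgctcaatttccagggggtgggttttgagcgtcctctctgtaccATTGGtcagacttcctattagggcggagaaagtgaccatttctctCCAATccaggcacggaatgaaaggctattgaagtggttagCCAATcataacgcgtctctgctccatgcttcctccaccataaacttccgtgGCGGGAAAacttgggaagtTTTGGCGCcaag
Mcm5 (chr8:75109259-75109558, plus strand): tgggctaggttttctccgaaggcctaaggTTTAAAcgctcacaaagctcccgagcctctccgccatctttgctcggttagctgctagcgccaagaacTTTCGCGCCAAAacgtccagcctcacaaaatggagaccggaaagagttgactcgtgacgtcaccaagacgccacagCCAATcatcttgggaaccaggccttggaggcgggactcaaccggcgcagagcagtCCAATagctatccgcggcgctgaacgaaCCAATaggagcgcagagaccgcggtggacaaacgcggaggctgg
Cdk1 (chr10:69352863-69353162, minus strand): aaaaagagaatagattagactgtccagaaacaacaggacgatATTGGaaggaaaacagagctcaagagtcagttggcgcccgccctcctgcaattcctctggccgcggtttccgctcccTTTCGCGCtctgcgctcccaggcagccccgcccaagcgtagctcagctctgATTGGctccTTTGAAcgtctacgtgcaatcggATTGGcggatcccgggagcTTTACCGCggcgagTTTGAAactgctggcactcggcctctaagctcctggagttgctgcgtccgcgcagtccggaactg
Ccnb1 (chr13:100786437-100786736, minus strand): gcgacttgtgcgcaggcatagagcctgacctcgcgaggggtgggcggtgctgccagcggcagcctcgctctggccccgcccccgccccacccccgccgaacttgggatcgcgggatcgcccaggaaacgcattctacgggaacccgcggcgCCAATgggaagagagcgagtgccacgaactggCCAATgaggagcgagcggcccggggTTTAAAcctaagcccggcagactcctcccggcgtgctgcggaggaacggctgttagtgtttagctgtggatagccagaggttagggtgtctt
The Mcm3, Mcm5 and Cdk1 windows each held 2 E2F-type matches, and the Ccnb1 window held 0. Cdk1 held 2 matches to TTTGAA, Ccnb1 and Mcm5 each held 1 to TTTAAA, and Mcm3 held neither form. All 8 selecting genes had a window. Over the list of replication and S phase genes, 31 of 38 genes matched a symbol, and 14 of their 35 windows (40%) held TTTNNCGC, against 5.17% of all 32851 windows. Over the list of G2 and mitosis genes, 44 of 54 genes matched, and 31 of 46 windows (67.4%) held TTTGAA against 17.9% of all windows, while 8.7% held TTTNNCGC. CCAAT stood in 71.7% of the windows of G2 and mitosis genes, 57.1% of those of replication genes and 37.4% of all windows. The E-box CAGATG, a form that bHLH factors bind, stood in 4 of 24 windows of endocrine factor genes (16.7%) and in 17.2% of all windows. A match is a description of the letters, not a bound site.

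**Figure D1:**
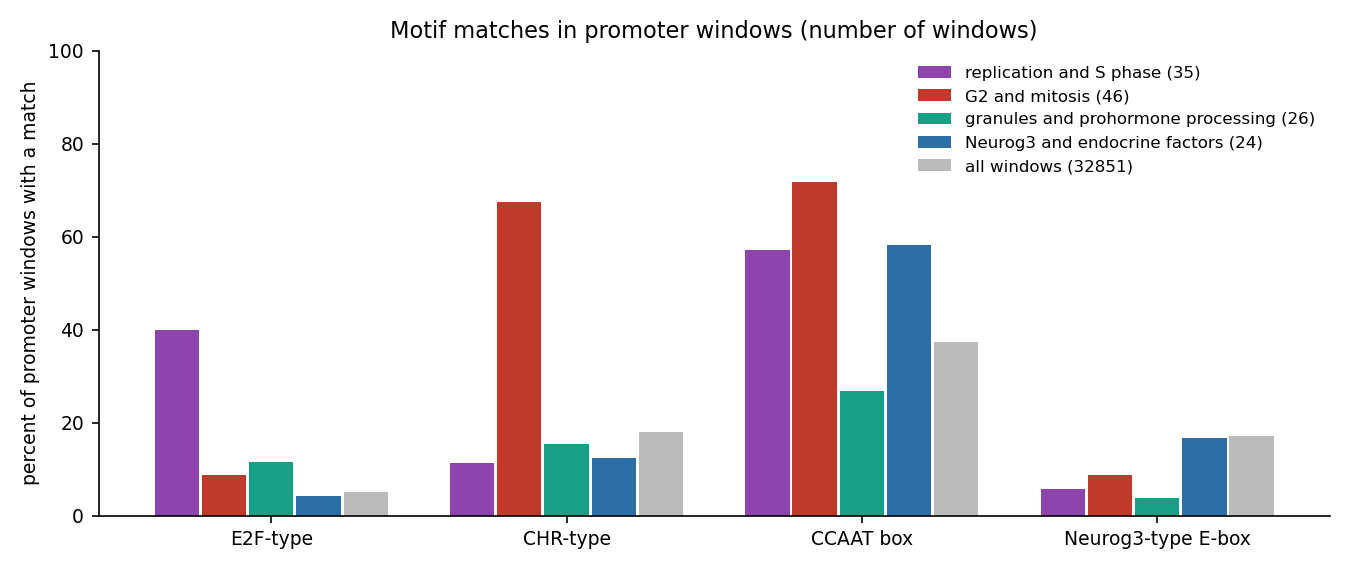
Percent of RefSeq promoter windows with at least 1 match on either strand (y axis) for 4 motifs (x axis), by gene list, with the number of windows in the legend. TTTNNCGC (E2F-type) stands in 40% of replication windows and TTTGAA (CHR-type) in 67.4% of G2 and mitosis windows, against 5.17% and 17.9% of all windows.

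The positive cells were selected mostly by their helicase genes. Of the 28, 19 carried exactly 3 of the 8 genes, 2 carried 4, 2 carried 5, 1 carried 6, 2 carried 7 and 2 carried all 8. All 28 had Mcm3 or Mcm5, 22 had both, and 17 had Mcm3, Mcm5 and 1 further gene. Mcm3 and Mcm5 each stood at 5 FPKM or more in 25 of 28 cells, while Cdk1 did in 13, Top2a and Ccnb1 in 12 each, Birc5 in 10, Mki67 in 8 and Ube2c in 6. In the 17 cells with Mcm3, Mcm5 and 1 further gene, that gene stood at 5.1 to 321 FPKM (median 12.3), and in 10 of them it was under 15 FPKM. Just outside the minimum, 31 cells had Mcm3 and Mcm5 alone. Of those 31, 23 were at 0 FPKM for all 6 other genes and the highest value of any was 4.41 FPKM.

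Cell cycle genes outside the selection split the positive cells. Among the 54 genes of the G2 and mitosis list, the 7 cells with 5 to 8 selecting genes had 10, 31, 37, 40, 46, 48 and 49 genes at 5 FPKM or more. The 21 cells with 3 or 4 selecting genes had 1 to 14 (median 6), the 129 in-between cells 1 to 17 (median 5) and the negative cells 0 to 9 (median 4). The 21 cells thus overlapped the in-between and the negative cells, and 6 of the 7 stood above every other Neurog3 cell. Kif2c, Ckap2l, Nuf2, Foxm1 and Mybl2 were listed at 0 in all 21 cells. The label cycling therefore matched the mitotic markers in 6 or 7 of the 28 cells. Since mitotic and selecting genes mark the same process, these counts describe the selection and were not tested.

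**Figure D2:**
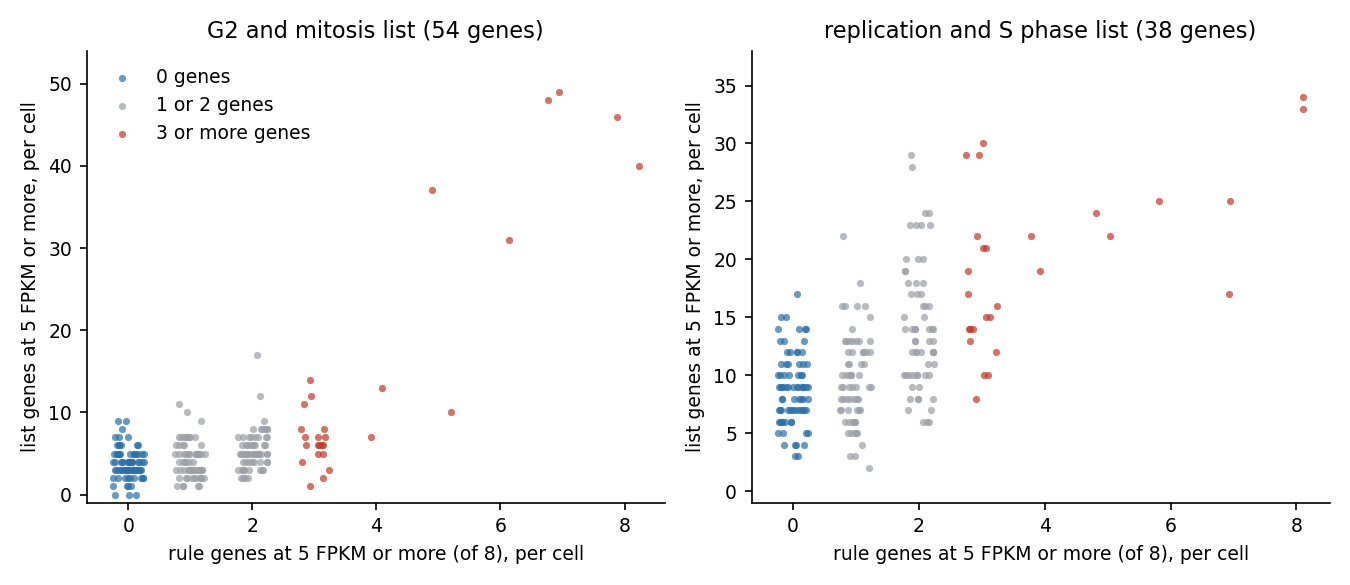
Each point is 1 of the 235 Neurog3 cells. The x axis is how many of the 8 selecting genes it carried at 5 FPKM or more (points spread sideways within a count) and the y axis how many genes of the G2 and mitosis list (left) or of the replication and S phase list (right) it carried at 5 FPKM or more. Mitosis genes number 31 to 49 in 6 cells and at most 17 in all others, while replication genes overlap between cells with 2 and with 3 selecting genes.

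The number of replication genes per cell was graded, while single genes did not all follow that order. Of 38 genes of replication and S phase, the 7 cells carried a median of 25, the 21 cells 16, the in-between cells 11 and the negative cells 9. Mcm2, another helicase subunit, stood at 5 FPKM or more in 6 of 7, 18 of 21, 84 of 129 and 29 of 78 cells in that order. Mcm4 did in 4, 17, 65 and 23 of those cells (57.1%, 81%, 50.4% and 29.5%), so its share was highest in the 21 cells. Mcm6 did in 5, 15, 54 and 16. Cdt1, which loads the helicase, stood at 5 FPKM or more in 3 of 7, 6 of 21, 7 of 129 and 4 of 78 cells. Gmnn, the inhibitor of Cdt1 that accumulates from S phase to mitosis, did so in 5 of 7, 5 of 21, 21 of 129 and 10 of 78 cells. Geminin transcript was thus common in the 7 cells and at a similar share in the 21 and the in-between cells. Replication and selecting genes mark the same process, so these counts too describe the selection and were not tested.

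The 7 cells came from 4 sets: 2 from E13.5 run 1, 1 from E14.5 run 2, 3 from E15.5 run 1 and 1 from E15.5 run 2. Their Neurog3 stood at 138, 208, 260, 916, 970, 2243 and 2511 FPKM, so 3 of them were near the low end of the members. Aurkb, the kinase of the chromosomal passenger complex, was listed at 43.8, 121, 286, 293 and 479 FPKM in 5 of the 7 cells and at 0 in the other two. Ccnb1 in the 7 cells ranged from 53.2 to 1308 FPKM and Birc5 from 96.3 to 566 FPKM. Pax4, a target of Neurog3, was at 10 FPKM or more in all 7 (37.1 to 1246 FPKM), as was Insm1, an endocrine zinc-finger factor (up to 43.9 FPKM). Neurod1 was at 10 FPKM or more in 6 of 7 cells. Fev reached 10 FPKM in 1 cell, and no hormone reached 100 FPKM in any of the 7, which allows a share of up to 41% by the exact interval. Epithelial markers were present, with Krt8 at 296 to 1430 FPKM and Epcam at 10 FPKM or more in 5 of 7.

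The share of positive cells was set against sorted cells with less Neurog3. Positive cells made up 11.9% of the Neurog3 cells (28 of 235, 95% exact Clopper-Pearson interval 8.07 to 16.8), 9.43% of cells with Neurog3 from 10 to 100 FPKM (5 of 53, 3.13 to 20.7) and 0.966% of cells with Neurog3 under 10 FPKM (2 of 207, 0.117 to 3.45). By set, the share among Neurog3 cells was 16.2%, 18.5%, 2.27%, 10%, 14.3% and 8%, in the order of sets above. Among cells under 10 FPKM it was 8% in E13.5 run 1 and 0 in the other sets. The share was higher in the Neurog3 cells in 6 of 6 sets, by a mean of 10.2 percentage points (SD 5.61, n = 6). It was 4.43 points with cells called by 2 of the 6 genes other than Mcm3 and Mcm5 and 2.75 points with at least 5 of the 8 genes. The 8 genes and the Neurog3 level also chose the members, so these shares are a description, with no test.

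Mcm3 and Mcm5 were seen most often in the Neurog3 cells, while cells with 5 or more of the 8 genes were few at every Neurog3 level. Mcm3 or Mcm5 stood at 5 FPKM or more in 55.3% of Neurog3 cells (130 of 235), 15.1% of cells from 10 to 100 FPKM (8 of 53) and 11.6% of cells under 10 FPKM (24 of 207). By set the share in Neurog3 cells ran from 36% to 75.7%, and in cells under 10 FPKM from 4.88% to 20%, so the ranges did not overlap. Mcm3 alone was seen in 98 of 235 against 8 of 207 cells, Mcm2 in 58.3% against 27.1%, Mcm7 in 56.6% against 30%, and Mcm4 in 46.4% against 15%. Pcna, the replication clamp, was seen in 55.3% against 53.6%. Cells with 5 or more of the 8 genes made up 2.98% of Neurog3 cells (7 of 235), 7.55% of cells from 10 to 100 FPKM (4 of 53) and 0.483% of cells under 10 FPKM (1 of 207). The 8 genes include Mcm3 and Mcm5, and these cells are too few to order the levels. Median depth was alike, at 595542, 524365 and 599664 fragments, as were detected genes, at 5351, 5894 and 5517. These gene-by-gene shares were chosen after their values were seen and were not tested.

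**Figure D3:**
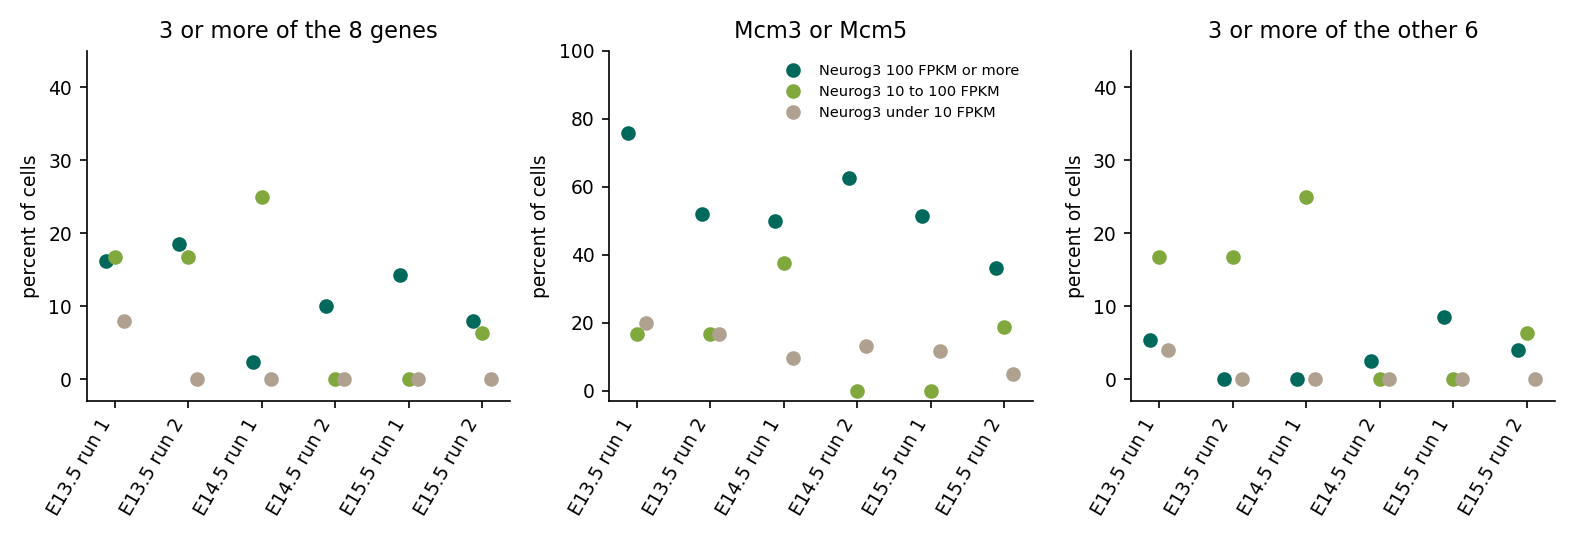
Percent of cells (y axis, wider range in the middle panel) in each of the 6 cell sets (x axis), coloured by Neurog3 level, with at least 3 of the 8 selecting genes (left), with Mcm3 or Mcm5 at 5 FPKM or more (middle), and with at least 3 of the other 6 genes (right). In the middle panel Neurog3 cells lie between 36% and 75.7% and cells under 10 FPKM between 4.88% and 20%.

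Along day, the fitted slope of the positive share was -3.11 points a day over the 6 sets. The 8 genes and the Neurog3 minimum behind this share also chose the members, so the slope is a description, with no test. The slope was -7.0 without E15.5 run 1, -1.17 without E13.5 run 2 and -1.8 without E13.5 run 1. Its sign turned with at least 5 of the 8 genes (1.79) and with 2 of the 6 genes other than Mcm3 and Mcm5 (1.26). E14.5 run 1 held 1 positive cell of 44 and E14.5 run 2 held 4 of 40, or 2.27% and 10% in the 2 runs of that day.

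Neurog3 itself and the reporter were compared between the states. Above the shared minimum, Neurog3 ranged from 130 to 4788 FPKM in positive cells (median 1446) and from 105 to 10882 FPKM in negative cells (median 778). The set means were 1348 against 1199, 1828 against 1325, 652 against 1150, 2054 against 1464, 1251 against 1656, and 2451 against 2179 FPKM, positive against negative, in the order of sets. Positive cells were higher in 4 sets and lower in 2. The mean log2 ratio was 0.0113 (SD 0.519, n = 6), and without 1 set at a time it ran from -0.0841 to 0.177. The ratio was -0.351 in run 1 and 0.374 in run 2, each over 3 sets. Neurog3 also chose the members, so its level is a description, with no test. The eGFP transcript stood at 1 FPKM or more in 19 of 28 positive and 36 of 78 negative cells. The share was higher in positive cells in 6 of 6 sets, by a mean of 33.5 points (SD 26.8, n = 6, exact two-sided sign permutation p = 0.03125, the smallest that 6 sets can give, and 0.0625 adjusted over 8 comparisons, which does not pass 0.05), and by 27.8 points in run 1 and 39.2 points in run 2. In the order of sets the differences were 16.7, 12.1, 65, 60, 1.67 and 45.5 points. Those of 65, 60 and 45.5 points rest on 1, 4 and 2 positive cells. The 4 sets with at least 3 cells of each state gave 22.6 points. The eGFP share was 16 of 21 in the cells with 3 or 4 genes and 3 of 7 in the cells with 5 to 8. When cells were instead called by 2 of the 6 genes other than Mcm3 and Mcm5, the eGFP difference was -13.8 points. Both groups change in that setting, here and below. Its negative cells are those with none of the 6 genes, so the 75 in-between cells with only Mcm3 or Mcm5 join them.

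Fev and hormone transcripts, which mark later endocrine steps, were compared by the share of cells that carry them, and neither difference passed the corrected test. Fev, the factor that follows Neurog3, reached 10 FPKM in 5 of 28 positive cells (17.9%) and 33 of 78 negative cells (42.3%). By set the shares were 16.7% against 16.7%, 10% against 52.6%, 0 against 40%, 75% against 40%, 0 against 41.7%, and 0 against 45.5%. Positive cells were lower in 4 sets, equal in 1 and higher in E14.5 run 2, where 3 of 4 positive cells had Fev. The mean difference was -22.5 points (SD 32.9, n = 6, exact p = 0.125, adjusted p = 0.2). It was -34 points without E14.5 run 2, -12.3 points over the 4 sets with at least 3 cells of each state (lower in 2 of 4), and 5.02 points by 2 of the 6 genes other than Mcm3 and Mcm5. Among in-between cells 28 of 129 (21.7%) had Fev. A hormone (Ins1, Ins2, Gcg, Ghrl, Sst or Ppy) reached 100 FPKM in 4 of 28 positive and 20 of 78 negative cells. Hormone shares were lower in positive cells in 6 of 6 sets, with a mean difference of -21.6 points (SD 15.3, n = 6, exact p = 0.03125, adjusted p = 0.0625). In the order of sets they were 16.7% against 50%, 30% against 31.6%, 0 against 5%, 0 against 20%, 0 against 33.3%, and 0 against 36.4%. The difference was thus -1.58 points in E13.5 run 2, which held 10 positive cells. E14.5 run 1 and E15.5 run 2 held 1 and 2 positive cells. Of the 4 hormone-bearing positive cells 2 were the only members with over 10000 detected genes. The cell of E13.5 run 1 held Gcg at 9624 and Ghrl at 1971 FPKM with Neurog3 at 130 FPKM, and the cell of E13.5 run 2 held Ghrl at 21967 FPKM with Neurog3 at 164 FPKM. Without cells above 10000 detected genes the mean hormone difference was -25.7 points, and by 2 of the 6 other genes it was -9.49 points, lower in 4 of 6 sets. The hormone share of in-between cells was 12.4%, against 14.3% in positive and 25.6% in negative cells. Ins1 stayed under 10 FPKM in all 28 positive cells, with a highest value of 6.41. In negative cells it reached 10 FPKM in only 2 of 78 (2.56%), with a median of 0 and a highest value of 692 FPKM.

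Across genes, each state of a set gave 1 mean, and 4 sets with at least 3 cells of both states entered (25 positive and 47 negative cells, 3 residual degrees of freedom). The fit was limma with the set as a block on log2(mean FPKM + 1), which understates changes of low genes. Of 14266 genes, 0 (0%) were higher in positive cells and 1 (0.00701%) was lower at a Benjamini-Hochberg adjusted p under 0.05. At an unadjusted p under 0.05, 225 genes (1.58%) were higher and 801 (5.61%) lower. The median difference of all genes was -0.313, with 63.9% of genes below 0. With the mean over cells of log2(FPKM + 1) the median was 0.052 with 46.1% below 0, and 4 genes were called higher (Dnajc9, Nmral1, Ppil1 and Tubb5) and 2 lower (Chgb and Chga). With cells rescaled to each other the median was -0.119. Differences below are read against these shifts.

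Chgb was the gene called lower. It encodes chromogranin B, a protein of secretory granules. Its set means in positive cells were 282, 470, 1.38, 194, 139 and 290 FPKM, and in negative cells 5179, 6611, 5732, 5407, 4060 and 2250 FPKM, in the order of sets. The highest positive mean lay below the lowest negative mean, so the set means did not overlap. Single cells did overlap, from 0 to 3240 FPKM (median 23.6) in positive and from 0 to 28639 FPKM (median 1374) in negative cells. Chgb stood at 10 FPKM or more in 57.1% of positive, 60.5% of in-between and 74.4% of negative cells, and the median of in-between cells was 18.3 FPKM, so in-between cells were also low by these measures. The log2 difference was -4.41 ± 0.24 (SE, 4 sets, limma adjusted p = 5.64e-04), and lower in all 4 sets of the fit. With positive cells of 3 or 4 selecting genes only, 3 sets with 17 positive and 35 negative cells could be fitted. They gave -4.02 (limma adjusted p = 0.017). The call was lost with detected genes as a term (-4.26, adjusted p = 0.173), with cells of Fev under 10 FPKM (-2.33, adjusted p = 0.845), with Neurog3 at 500 FPKM or more (-5.06, adjusted p = 0.558), with all 6 sets (-5.31, adjusted p = 0.218) and with cells called by 2 of the 6 other genes (-2.81, adjusted p = 0.453). In that last setting cells with only Mcm3 or Mcm5 counted as negative.

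Granule and prohormone processing genes lay mostly below 0. Of 26 listed genes 25 were tested, 23 had a negative and 2 a positive difference, 1 was called lower and 0 higher, with a median of -1.51 against -0.313 for all genes. Under the mean over cells of log2 the median was -0.573 and 20 of 25 were below 0. Chga, chromogranin A, had set means of 39.9, 26.5, 0, 107, 102 and 64.7 FPKM in positive cells against 202, 694, 751, 1612, 1878 and 1188 FPKM in negative cells. Chga stood at 10 FPKM or more in 8 of 28 positive and 53 of 78 negative cells, with a log2 difference of -3.76 ± 0.43 (limma adjusted p = 0.115). That p passed the threshold in 7 alternatives, among them the mean over cells of log2 (adjusted p = 0.0409). Cpe, the carboxypeptidase that trims prohormones, had -3.26 ± 0.81 (limma adjusted p = 0.68), and Scg5, the chaperone of prohormone convertase, -3.39 ± 1.14 (limma adjusted p = 0.694). Chga, Cpe and Scg5 were named after their values were seen, as were Pax6, Cryba2, Bex2, Mcm2 and Dnajc9 below.

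**Figure D4:**
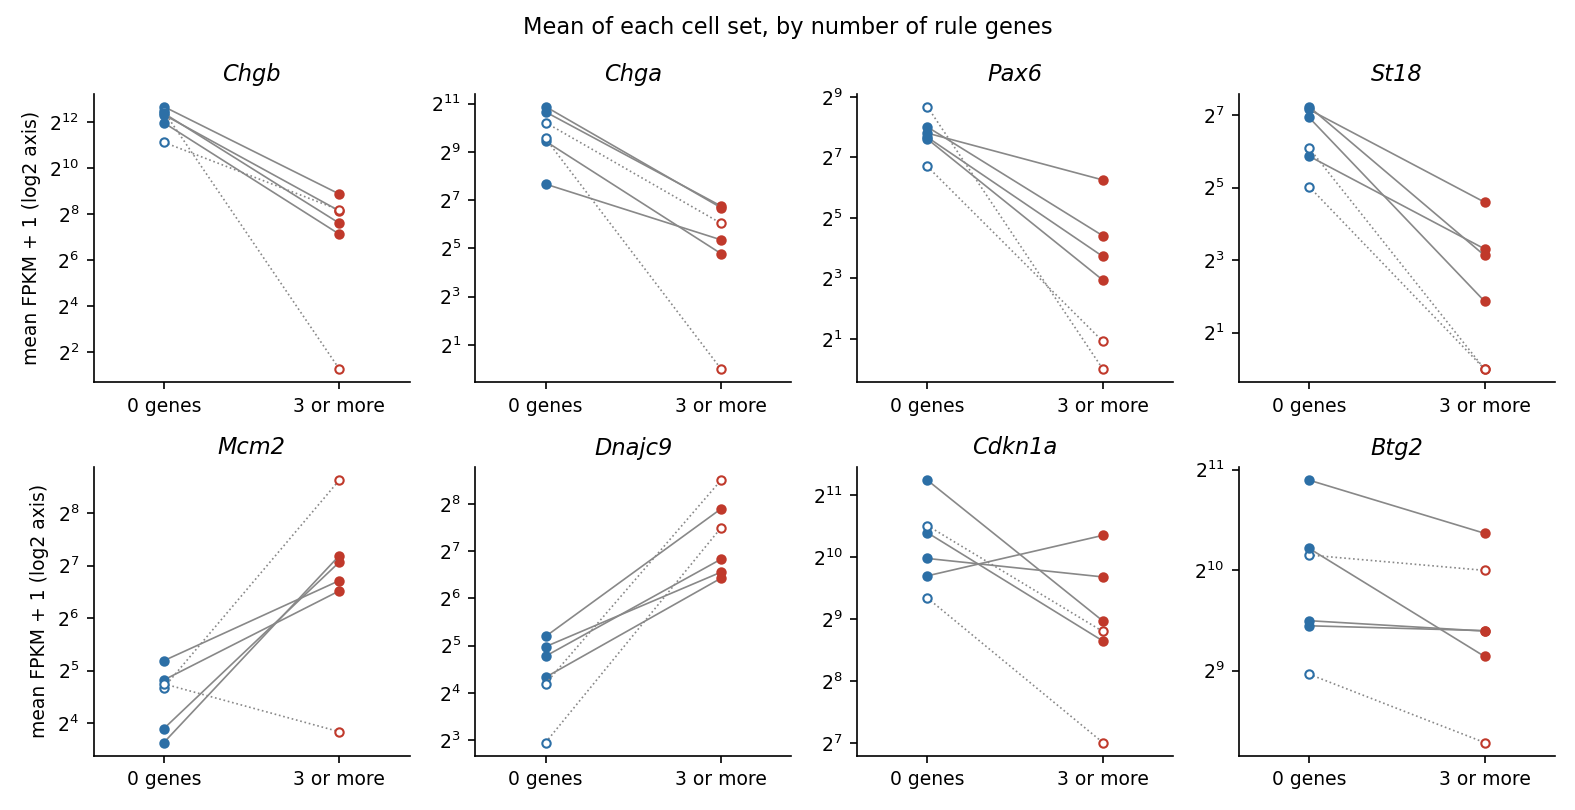
Mean FPKM + 1 on a log2 axis (y axis) of negative cells (0 genes, blue) and positive cells (3 or more, red) in each cell set, for 8 genes, with a line joining the 2 means of a set. Open points and dotted lines are E14.5 run 1 and E15.5 run 2, with 1 and 2 positive cells. Chgb means in positive cells run from 1.38 to 470 FPKM and in negative cells from 2250 to 6611 FPKM, without overlap, while Cdkn1a and Btg2 overlap.

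Endocrine transcription factors had a median of -0.71 over 25 tested genes of 32, 20 of them below 0, and -0.235 with the mean over cells of log2, where 14 of 25 were below 0. None was called in either direction (0 of 25, against 1 of all 14266 genes). Pax6, a factor of hormone-producing endocrine cells, had set means of 75.2, 12.2, 0, 20.2, 6.68 and 0.886 FPKM in positive cells and 222, 202, 408, 256, 194 and 103 FPKM in negative cells, which did not overlap. Pax6 stood at 10 FPKM or more in 8 of 28 positive and 50 of 78 negative cells (-3.44 ± 0.58, limma adjusted p = 0.576). The Pax6 share was 4 of 7 (57.1%, median 31.7 FPKM) in cells with 5 to 8 selecting genes. It was 4 of 21 (19%, median 0 FPKM) in cells with 3 or 4, against 64.1% (median 95.1 FPKM) in negative cells. St18, a zinc-finger factor, stood at 10 FPKM or more in 5 of 28 and 45 of 78 cells (-3.57 ± 0.62, limma adjusted p = 0.583). Isl1, a LIM homeodomain factor of later endocrine cells, did so in 3 of 28 and 27 of 78 cells (-4.51 ± 1.43, limma adjusted p = 0.692). Cryba2, a crystallin gene, gave -2.995 ± 0.37 (limma adjusted p = 0.147), and Bex2 gave -1.68 ± 0.25 (limma adjusted p = 0.333). Neurod1 and Pax4 act close to the Neurog3 step. Neurod1 stood at 10 FPKM or more in 24 of 28 and 70 of 78 cells (-0.98 ± 0.50, limma adjusted p = 0.706, and -1.61 with the mean over cells of log2), and Pax4 in 26 of 28 and 70 of 78 cells (-0.67 ± 0.33, limma adjusted p = 0.706). The Pax4 difference was 0.10 with the mean over cells of log2, so its sign depended on that choice. Fev itself had -2.44 ± 0.88 (limma adjusted p = 0.694).

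Hormone and islet peptide genes had a median of -1.89 over 10 tested of 15, and -0.172 with the mean over cells of log2, where 5 of 10 were below 0. Ghrl, the ghrelin gene, reached 10 FPKM in 2 of 28 positive and 11 of 78 negative cells (-4.11 ± 2.70, limma adjusted p = 0.706). The Ghrl difference was -1.11 with the mean over cells of log2, -7.11 without E13.5 run 2, -2.44 without E14.5 run 2 and -0.80 without E15.5 run 1, so its size rests on single sets. It passed in run 1 alone (-6.10, limma adjusted p = 8.15e-20), but the 2 sets left there went opposite ways. Mean Ghrl in positive against negative cells was 330 against 90.5 FPKM in E13.5 run 1 and 0 against 16950 FPKM in E15.5 run 1. In E13.5 run 2 it was 2197 against 73.5 FPKM, and in E14.5 run 2 it was 0 against 564 FPKM. The direction was therefore split among the 4 fitted sets. The highest negative cell held 203307 FPKM. Pyy, the peptide YY gene of early islet cells, reached 10 FPKM in 7 of 28 and 32 of 78 cells (-3.98 ± 1.81, limma adjusted p = 0.702). The Pyy difference passed with Neurog3 at 10 FPKM or more (-7.29, limma adjusted p = 0.0191), in the 2 sets of run 2 alone (-5.90, limma adjusted p = 0.00803) and by 2 of the 6 other genes (-5.67, limma adjusted p = 0.0109). It was -6.79 without E13.5 run 1, -2.45 without E15.5 run 1 and -1.26 with the mean over cells of log2. Mean Pyy was higher in positive cells in E13.5 run 1 (42.6 against 1.0 FPKM) and lower in the other sets. Median Pyy was 5.0 FPKM in positive and 5.44 FPKM in negative cells, and the highest negative cell held 123692 FPKM. Gcg reached 10 FPKM in 7 of 28 and 7 of 78 cells, with a highest value of 9624 against 1375 FPKM. Ins2 did in 3 of 28 and 14 of 78 cells, with a highest value of 90.9 against 14101 FPKM.

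No gene of cell cycle exit was called in either direction, and only 1 of all 14266 genes was. Of 20 listed inhibitors and exit genes 17 were tested, 7 above and 10 below 0, with a median of -0.066, or 0.453 with the mean over cells of log2. Cdkn1a, the p21 inhibitor of cyclin-dependent kinases, had set means of 822, 1309, 128, 502, 401 and 446 FPKM in positive and 1011, 832, 650, 2430, 1350 and 1462 FPKM in negative cells. Cdkn1a stood at 10 FPKM or more in all 28 positive and 73 of 78 negative cells, and at 61.2 to 926 FPKM in the 7 cells with 5 to 8 genes. Its log2 difference was -0.92 ± 0.45 (limma adjusted p = 0.706). Btg2, an antiproliferative gene, was at 10 FPKM or more in every member of both states (93.5 to 2088 and 12.9 to 4531 FPKM), with a difference of -0.44 ± 0.24 (limma adjusted p = 0.706). Pak3, a kinase linked to endocrine cell cycle exit, reached 10 FPKM in 6 of 28 and 32 of 78 cells (-2.60 ± 0.70, limma adjusted p = 0.68). Cdkn1c, the p57 inhibitor, reached 10 FPKM in 14 of the 21 cells with 3 or 4 genes, 1 of the 7 cells with 5 to 8 and 23 of 78 negative cells. Cdkn3, a phosphatase of Cdk1 and Cdk2, was listed at 0 in all 78 negative and all 21 cells with 3 or 4 genes and reached 71.9 FPKM in the 7 cells.

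The replication and mitosis lists were tested genome-wide with the other genes, though the cells were selected on 8 genes of the same processes. Of the replication list 37 of 38 were tested and 36 lay above 0 (median 1.91, or 1.78 with the mean over cells of log2). Of these 0 passed the adjusted threshold, which 1 of all 14266 genes passed. Mcm2 set means were 133, 90.7, 394, 145, 104 and 13.3 FPKM in positive and 13.9, 27.3, 24.6, 11.4, 35.5 and 25.9 FPKM in negative cells, higher in every set except E15.5 run 2. Its difference was 2.49 ± 0.55 (limma adjusted p = 0.68). Dnajc9, a histone co-chaperone, stood at 10 FPKM or more in 26 of 28 positive and 24 of 78 negative cells (2.11 ± 0.45, limma adjusted p = 0.68), and with the mean over cells of log2 its difference of 3.62 passed (limma adjusted p = 0.0409). Rrm2, the small subunit of ribonucleotide reductase, had 4.23 ± 1.24 (limma adjusted p = 0.681), and Pold1, a replicative DNA polymerase, 3.77 ± 0.75 (limma adjusted p = 0.68). Of the G2 and mitosis list 50 of 52 tested genes lay above 0, with a median of 2.27, or 1.16 with the mean over cells of log2. Prc1, which bundles spindle microtubules, had 4.30 ± 1.11 (limma adjusted p = 0.68) with 7 of 28 cells at 10 FPKM or more against 3 of 78. Asf1b, a histone chaperone of replicating cells, was listed at 0 in all 78 negative cells and reached 10 FPKM in all 7 cells with 5 to 8 genes, 5 of 21 with 3 or 4, and 19 of 129 in-between cells.

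**Figure D5:**
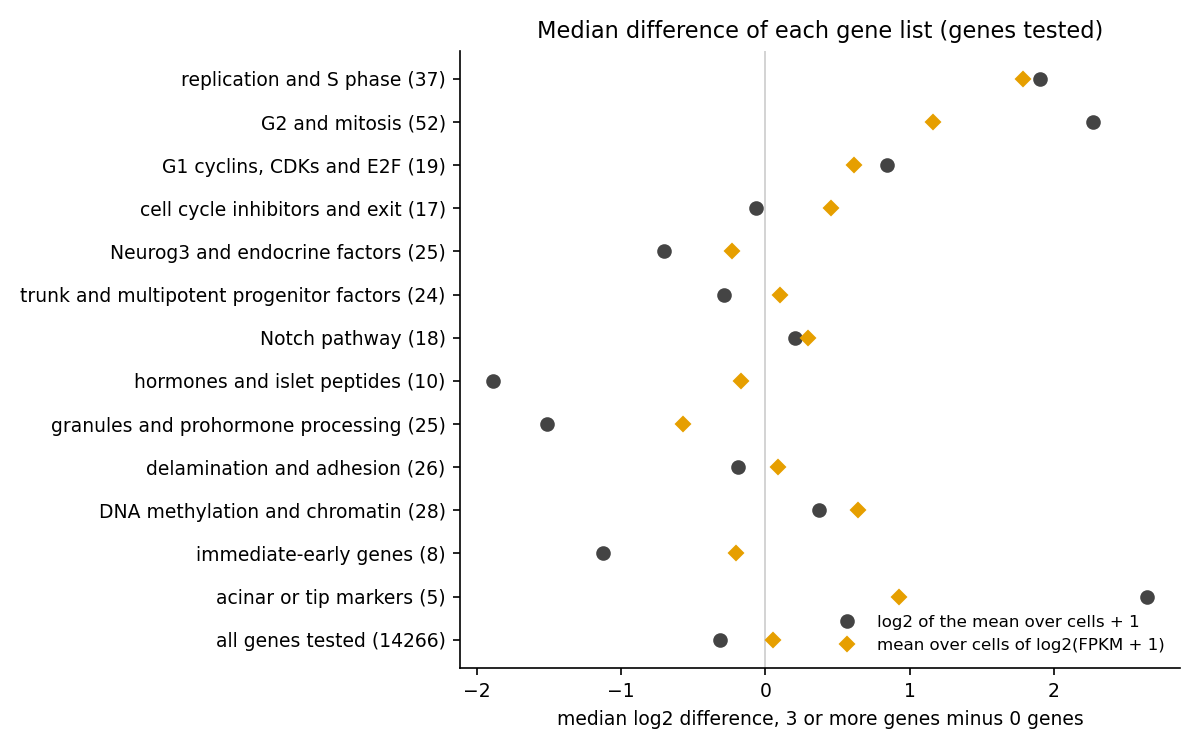
Median log2 difference between positive and negative cells (x axis) over the tested genes of each list (y axis, number tested in brackets), from the log2 of the mean FPKM + 1 (circles) and from the mean over cells of log2(FPKM + 1) (diamonds). G2 and mitosis genes move from 2.27 to 1.16 and granule genes from -1.51 to -0.573 between the 2 summaries, and all genes tested from -0.313 to 0.052.

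Among G1 genes 14 of 19 tested lay above 0 (median 0.84), and 0 were called, against 1 of all 14266 genes. Ccne2, cyclin E2, reached 10 FPKM in 12 of 28 positive and 11 of 78 negative cells (3.03 ± 0.81, limma adjusted p = 0.68). Ccnd2, cyclin D2, did in 12 of 28 and 10 of 78 cells (1.88 ± 0.84, limma adjusted p = 0.699), and Ccnd1, cyclin D1, in 7 of 28 and 7 of 78 cells. In the chromatin list 20 of 28 tested genes lay above 0, and Uhrf1, which keeps DNA methylation through replication, had 3.48 ± 1.20 (limma adjusted p = 0.694).

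No progenitor or Notch gene was called in either direction, and only 1 of all 14266 genes was. Sox9, the trunk progenitor factor, reached 10 FPKM in 6 of 28 positive and 15 of 78 negative cells. Hes1, the Notch target that represses Neurog3, did in 2 of 28 and 4 of 78 cells. Trunk and multipotent factors had a median of -0.286, which was 0.102 with the mean over cells of log2. Notch genes had a median of 0.204 over 18 tested, and Numbl and Hey1 each reached 10 FPKM in 3 of 28 and 1 of 78 cells. For delamination and adhesion the median was -0.189, or 0.084 with the mean over cells of log2. Cldn4, a tight junction claudin, had -2.57 ± 0.45 (limma adjusted p = 0.583) and Tjp1, the ZO-1 scaffold, -1.995 ± 0.75 (limma adjusted p = 0.694). Of the immediate-early genes 7 of 8 tested lay below 0 (median -1.13), with Dusp1 at -2.52 ± 0.80 (limma adjusted p = 0.692) and Fos at -1.89 ± 0.38 (limma adjusted p = 0.68).

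Markers of other cells were looked at beside these differences. Of the acinar or tip markers 5 were tested and all 5 lay above 0 (median 2.65). Cpa1, a carboxypeptidase of tip and acinar cells, reached 10 FPKM in 5 of 28 positive and 1 of 78 negative cells (3.04 ± 1.28, limma adjusted p = 0.694). The summed level of the 10 acinar markers with an entry ran from 0 to 1766 FPKM (median 6.07) in positive and from 0 to 414 FPKM (median 0) in negative cells, and Prss1 and Pnlip were at 0 in all negative cells. By 2 of the 6 genes other than Mcm3 and Mcm5 the Cpa1 difference was -0.32. Leukocyte markers summed to at most 307 FPKM in positive and 149 FPKM in negative cells, both with a median of 0, and C1qb, Lyz2, Tyrobp, Cd52 and Coro1a were at 0 in all positive cells. Cd68 reached 10 FPKM in 2 of 28 and 3 of 78 cells. Endothelium markers summed to at most 97.7 and 317 FPKM, with Egfl7 at 10 FPKM or more in 6 of 28 and 8 of 78 cells and Pecam1 in 0 of 28 and 4 of 78. Mesenchyme markers summed to at most 199 and 125 FPKM (Dcn in 1 of 28 and 5 of 78 cells), neural crest and glia markers to at most 83.2 and 141 FPKM (Ret in 7 of 28 and 11 of 78, Erbb3 in 0 of 28 and 9 of 78), and erythroid markers to at most 28.4 and 78.3 FPKM (Hba-a2 in 2 of 28 and 2 of 78). The part of these transcripts in the state differences was not tested.

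Detected genes and depth were compared as well. The median number of detected genes was higher in positive cells in 6 of 6 sets, by 0.0898 on the log2 scale (SD 0.0645, n = 6, exact p = 0.03125, adjusted p = 0.0625), for example 5410 against 5242 in E13.5 run 1 and 5220 against 4542 in E15.5 run 1. In the 21 cells with 3 or 4 genes against negative cells that difference was -0.0131. Fragments had a mean log2 difference of -0.176 (SD 0.447, n = 6, exact p = 0.3438, adjusted p = 0.4444), with positive cells lower in 4 sets. With detected genes as a term the Chgb difference was -4.26 against -4.41 without it, and no longer passed (limma adjusted p = 0.173), and the Ghrl, Neurod1 and Pax4 differences were 0.54, 0.47 and 0.27 against -4.11, -0.98 and -0.67 without it.

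Whether the state difference changed with day was fitted over the 6 within-set differences. Of 14215 genes 0 passed in limma at an adjusted p under 0.05, 438 had an unadjusted p under 0.05, and the lowest adjusted p was 1. In 2 of the sets the difference rested on 1 and 2 positive cells.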

How the data were processed

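Single cells were measured with SMART-seq, without molecular identifiers or strand marking. The authors deposited FPKM values per gene and cell, and per the submitters' processing notes TopHat2 2.0.13, Cufflinks 2.2.0 and the build mm10 were named, with the annotation not given in the sources used here. Fragments per cell are the labels' total mass. The members and the gene lists were chosen with earlier results of these data known. Of 721 deposited columns 0 were left unmapped.

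Cells of a state in a set were averaged, and log2(mean FPKM + 1) went into limma 3.58.1 (R 4.3.3; trend, set as a block, two-sided, Benjamini-Hochberg over all genes with a mean of at least 1 FPKM). Neurog3 and the 8 selecting genes were left out of that test. Set shares and medians were compared by exact two-sided sign permutation, adjusted over 8 comparisons. Of these, the share by Neurog3 level, the slope along day and the Neurog3 level by state are given without their tests. Intervals of shares are Clopper-Pearson at 95% and hold only the error of counting. The fit was also run on simulated data with independent normal noise around the set means. Means over few cells need not spread that way, so no conclusion is drawn from that run. No doublet caller was run. The highest correlation between member cells of the 2 runs was 0.733, 0.655 and 0.699 at the 3 days, so no cell was taken as sequenced again.

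The rule for named genes took up to 12 called genes in each direction, up to 4 called or else the 2 largest differences of each list, and a fixed set that holds Neurog3, the 8 selecting genes, Fev, Sox9, Hes1, Neurod1, Pax4, Cdkn1a, Cdkn1c, Pak3, Btg2, Ccnd1, Ccnd2, hormones and eGFP. A few genes chosen by this rule are left unreported. Other genes were named after their values were seen. Alternatives varied the pseudocount, level filter, summary over cells, block, cell filters, selecting genes, runs and sets. Promoter windows came from RefSeq on GRCm38.p6, the same assembly as mm10.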

Additional observations from a re-analysis of the deposited data

Results flagged for a closer look

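There were 3 values that stood far from the other sets of their group. The share of positive cells with Fev at 10 FPKM or more was 75% in E14.5 run 2 (3 of 4 cells) and at most 16.7% in the other sets. The share of negative cells with Fev was 16.7% in E13.5 run 1 (1 of 6 cells), below the 40% to 52.6% of the other sets. The share of positive cells among cells with Neurog3 under 10 FPKM was 8% in E13.5 run 1 (2 of 25 cells) and 0 in the other 5 sets. By its construction this rule flags about 1 in 20 groups by chance where values spread normally. Shares of few cells with tied values do not, so that rate need not hold for these groups.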

How the results depend on the processing

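In the gene fit (0 genes higher, 1 lower), the counts were 4 higher and 2 lower with the mean over cells of log2, 18 and 10 with Neurog3 at 10 FPKM or more, 36 and 80 in run 1 alone, 6 and 25 in run 2 alone (each with 2 sets and 1 residual degree of freedom), and 0 higher with 3 lower at a minimum mean of 10 FPKM. They were 0 and 2 with no replicate block and with the 8 genes at 10 FPKM, 0 and 8 by 2 of the 6 other genes, and 0 and 0 with detected genes as a term, Neurog3 at 500 FPKM or more, Fev under 10 FPKM, or all 6 sets. Leaving out 1 set at a time gave 0 to 2 higher and 1 to 3 lower, and without E13.5 run 2 they were 2 and 3. The paired fit with the set as a block is the main one, and dropping the block left Chgb called and added 1 predicted gene. Cells with 5 or more genes could not be fitted, since 1 set held 3 of them.

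For fragments the sign turned with cells of at least 300000 fragments (0.0413). The Neurog3 level turned at 500 FPKM or more (-0.304), with 5 of 8 genes (-0.563), Fev under 10 FPKM (-0.368), run 1 alone (-0.351), 2 of the 6 other genes (-0.261) and without single sets (-0.0203, -0.0793, -0.0841 and -0.0204, in a range of -0.0841 to 0.177). The slope of the positive share on day was 1.79 with 5 of 8 genes and 1.26 with 2 of the 6 other genes. Detected genes turned with 3 or 4 genes only (-0.0131). By 2 of the 6 other genes, the eGFP share was -13.8, the Fev share 5.02 and Cpa1 -0.32. That setting also counts cells with only Mcm3 or Mcm5 as negative. With detected genes as a term Ghrl was 0.54, Neurod1 0.47 and Pax4 0.27, with the mean over cells of log2 Pax4 was 0.10, and with Fev under 10 FPKM Cryba2 was 0.03. Where a test is given, none of these reversed values passed an adjusted p of 0.05, and the cause of the reversals was not tested. The hormone share and the share by Neurog3 level kept their direction in the alternatives that gave a value, but shrank to -9.49 and 4.43 by 2 of the 6 other genes, and the latter to 2.75 with 5 of 8 genes. Settings by 3 or 4 genes, 2 of 6 genes, all 6 sets, at most 10000 detected genes, and sets with 3 cells of each state were chosen after seeing the data. The 28 positive cells, 19 of them at the minimum of 3 genes, limit every comparison.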
